A study of Mus musculus with 3 samples.

Results

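ChIP-seq peaks of ATF4 and CEBPG, transcription factors of the basic leucine zipper (bZIP) class, were described at 10 genes of mTORC1 signalling. These genes are among 21887 protein-coding genes of the nuclear chromosomes. mTORC1 is a growth kinase complex, and the products of the 10 genes regulate it, form part of it or act downstream of it. The genes were Sesn1, Sesn2, Sesn3, Ddit4, Eif4ebp1, Rheb, Nprl3, Depdc5, Rptor and Deptor. They were chosen by name, and a peak was assigned to a gene when it overlapped the mm10 RefSeq span of the gene or the 20 kb on either side, together called the window below. The windows held 5 of the 2642 ATF4 peaks and 22 of the 25419 CEBPG peaks.

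The libraries came from wild-type C57BL/6 mouse embryonic fibroblasts, primary cells isolated at E13.5 and passaged a few times. After 24 hours in plain culture, every plate was switched to amino acid deprived medium (AAD) for 3 hours. Chromatin was then immunoprecipitated and sequenced (ChIP-seq). There was 1 library for an ATF4 antibody, 1 for a CEBPG antiserum raised against its C terminus and 1 for a GFP antibody, which was not analysed here. No library of fed cells was analysed here, so every value describes deprived cells. Peak lists hold no expression values, and the fibroblast identity of the cells could not be checked from them. Without replicates, no value below has an error between cultures and no difference between conditions was tested. Each peak carries a score given by the authors' peak caller, which starts at 40 in both lists. The median score was 45.88 in the ATF4 list and 47.24 in the CEBPG list. Library depth is unknown, so scores are read within a list and not between the lists.

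mTORC1 drives protein synthesis and growth when amino acids are plentiful. Amino acids act through Rag GTPases, which bring mTORC1 to the lysosome, where the GTPase Rheb switches it on. The GATOR1 complex, which contains Nprl3 and Depdc5, turns the Rag GTPases off, and sestrins restrain GATOR2, the complex that opposes GATOR1. ATF4 is translated when amino acids run out, CEBPG is a C/EBP family partner that binds DNA with it, and Sesn2, Ddit4 and Eif4ebp1 are known as genes induced through ATF4.

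Of the 10 genes, 4 carried an ATF4 peak in their window, against 7.44% of all protein-coding genes. These were Sesn2, Ddit4, Eif4ebp1 and Rheb. At each of these 4 genes the ATF4 peak overlapped a CEBPG peak, a state found at 1.78% of all protein-coding genes and at 24% of the 1628 genes with an ATF4 peak. A CEBPG peak lay in the window of all 10 genes, against 43.7% of all genes, but its highest score was under 100 at 5 of them. Since the genes were chosen with earlier results of these data known, these counts describe the 10 genes and carry no test.

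**Figure D1:**
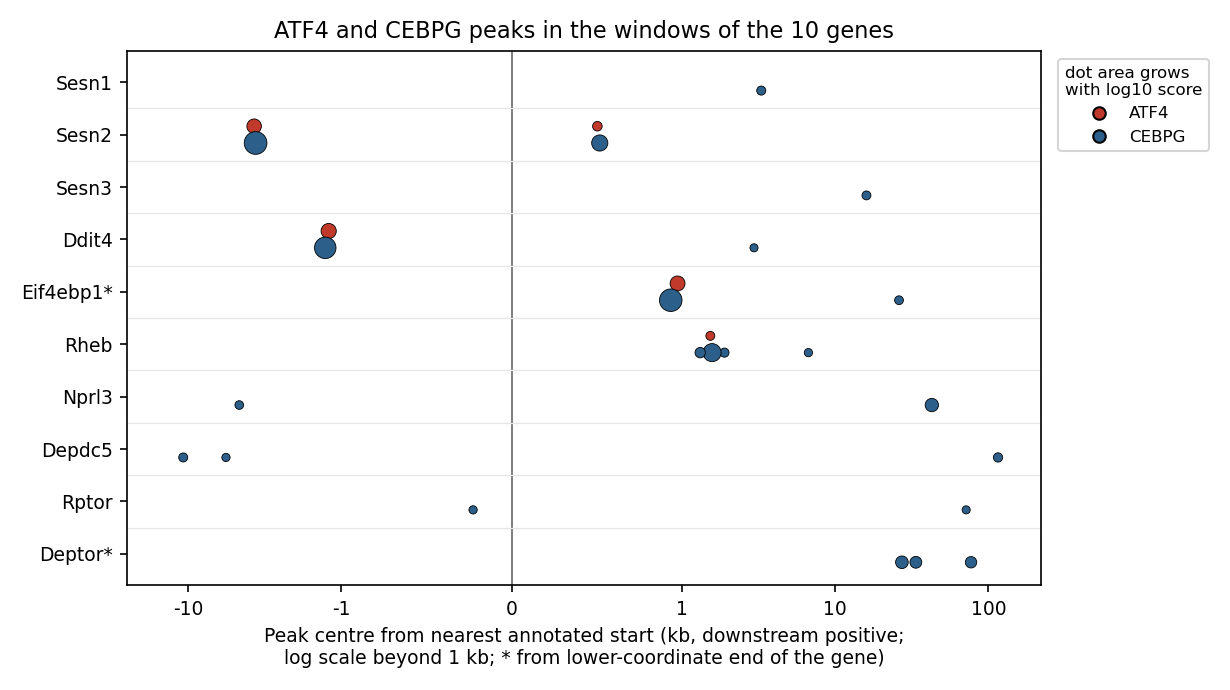
Position of every ATF4 peak (red) and CEBPG peak (blue) in the windows of the 10 genes, as kb from the nearest annotated transcription start (downstream positive, log scale beyond 1 kb) or, for the genes with an asterisk, from the lower-coordinate end of the gene. Dot area grows with the log10 score; the 5 ATF4 peaks at Sesn2, Ddit4, Eif4ebp1 and Rheb each sit on a CEBPG peak, and the 6 other genes show CEBPG peaks alone.

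The start regions of Sesn2, Ddit4, Rheb and Rptor are printed below, as the 250 bases before the annotated start on the gene's own strand (RefSeq, GRCm38.p6, the build of the peaks). The first 3 are shown because their genes carry ATF4 peaks near this stretch. Rptor is shown because, of the 8 genes with such a sequence, it alone had a peak overlapping the sequence. In the Rptor sequence the 101 bases in capitals lie under the CEBPG peak. In the Rheb sequence the capitals mark an E-box.
Sesn2 (chr4:132510457-132510706, minus strand): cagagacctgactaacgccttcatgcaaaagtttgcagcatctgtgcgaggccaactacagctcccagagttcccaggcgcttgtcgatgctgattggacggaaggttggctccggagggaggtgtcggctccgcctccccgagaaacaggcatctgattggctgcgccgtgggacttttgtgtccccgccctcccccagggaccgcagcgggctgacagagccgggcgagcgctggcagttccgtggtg
Ddit4 (chr10:59951771-59952020, minus strand): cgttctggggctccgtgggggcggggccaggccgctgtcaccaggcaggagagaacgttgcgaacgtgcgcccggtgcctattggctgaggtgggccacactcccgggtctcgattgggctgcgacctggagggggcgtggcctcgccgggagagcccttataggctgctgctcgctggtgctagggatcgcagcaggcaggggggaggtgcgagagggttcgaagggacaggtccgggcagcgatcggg
Rheb (chr5:24842362-24842611, minus strand): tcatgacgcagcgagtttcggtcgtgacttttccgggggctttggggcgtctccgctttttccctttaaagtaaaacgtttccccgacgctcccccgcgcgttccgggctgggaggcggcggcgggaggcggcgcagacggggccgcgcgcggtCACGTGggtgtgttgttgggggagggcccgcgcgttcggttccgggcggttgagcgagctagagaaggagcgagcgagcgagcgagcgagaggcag
Rptor (chr11:119602655-119602904, plus strand): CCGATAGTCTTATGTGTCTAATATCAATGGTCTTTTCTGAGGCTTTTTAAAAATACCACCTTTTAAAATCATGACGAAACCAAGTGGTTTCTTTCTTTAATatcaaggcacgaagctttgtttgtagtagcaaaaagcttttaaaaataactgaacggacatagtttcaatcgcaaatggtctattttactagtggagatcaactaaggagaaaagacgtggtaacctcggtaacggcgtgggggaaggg

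Both strands of such stretches were searched for 6 motifs, in 9 stretches of 8 of the 10 genes and in 21263 stretches of all protein-coding genes. The C/EBP-ATF composite element TGATGNAA was in 3.18% of all stretches, TGACGCAA, which joins parts of the CRE and C/EBP elements, in 0.578%, and the C/EBP palindrome TTGCGCAA in 0.198%. The CRE, TGACGTCA, was in 1.92% and the AP-1 motif TGANTCA in 6.13%. None of these 5 motifs was in the 9 stretches. That result says only that these letters are absent from the stretches, because the rest of the gene windows was not searched. The E-box CACGTG, held by 6.63% of all stretches, was in Rheb alone of the 8 genes, its first base 96 bases before the start. Apart from the Rptor peak, no ATF4 or CEBPG peak overlapped these stretches of the 8 genes. Over all such stretches, 0.15% overlapped an ATF4 peak and 1.44% a CEBPG peak. The sequence under the ATF4 peaks was not analysed here.

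Among the sestrins, Sesn2 carried peaks of both factors and Sesn1 and Sesn3 carried weak CEBPG peaks only. Sesn2 encodes a leucine-binding protein that restrains mTORC1 through GATOR2. Its ATF4 peaks had scores of 164.36 (chr4:132513949-132514394) and 52.08 (chr4:132509878-132510029). The CEBPG peaks under them scored 3100 (chr4:132513659-132514524) and 267.95 (chr4:132509758-132510120). The stronger pair was upstream of the gene, with the ATF4 centre 3715 bp before the start, and the weaker pair was inside it, 503 bp after the start. A gene with 2 or more overlapping pairs was rare in these lists, with 14 genes or 0.064% of all protein-coding genes, and Sesn2 was the only one of the 10. The score of 3100 was shared by 38 CEBPG peaks, and 4 peaks of the list scored higher, up to 3205.83, so the strongest CEBPG peak of Sesn2 cannot be ranked among the tied peaks. No other protein-coding gene reached into the Sesn2 window.

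At Sesn1, a p53-regulated sestrin, the single CEBPG peak scored 47.42 and lay inside the gene, 3.29 kb after the second of its 2 annotated starts. At Sesn3, a sestrin known as a FOXO target, the single CEBPG peak scored 46.25 and lay 16 kb after the start. Both scores are close to the median of the CEBPG list. The nearest ATF4 peaks lay 370 kb from Sesn1 and 276 kb from Sesn3.

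Ddit4 encodes REDD1, a stress-induced protein that inhibits mTORC1 through the TSC complex. It had the highest ATF4 score of the 10 genes, 199.36 (chr10:59952812-59953152), on a CEBPG peak of 1838.78 (chr10:59952736-59953356). The ATF4 peak was centred 1212 bp before the start. A second CEBPG peak, with a score of 40.41, lay 856 bp beyond the other end of this 2096 bp gene and overlapped no ATF4 peak. By the highest ATF4 score in the window, 52 of the 21887 genes ranked above Ddit4, 57 above Eif4ebp1 and 71 above Sesn2, counting neighbouring genes that share a peak each time.

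Eif4ebp1 encodes 4E-BP1, which binds the cap-binding factor eIF4E and holds back translation when mTORC1 is off. Its ATF4 peak scored 183.26 (chr8:27261096-27261507) and its CEBPG peak 2846.75 (chr8:27260887-27261636). Both lay inside the gene, with centres 974 bp (ATF4) and 934 bp (CEBPG) from its lower-coordinate end. A further CEBPG peak of 45.25 lay 10754 bp beyond the higher-coordinate end.

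Rheb, the direct activator of mTORC1, had the weakest ATF4 peak of the 4 genes, with a score of 46.42 (chr5:24840679-24840981), about the median of the ATF4 list. The CEBPG peak under it scored 503.12 (chr5:24840587-24840991), a score reached by 2.59% of CEBPG peaks. The ATF4 centre lay 1531 bp after the start, inside the gene. Next to this CEBPG peak were separate peaks of 48.19 (chr5:24840367-24840572) and 60.69 (chr5:24841016-24841077), and another, of 41.39, lay 6.68 kb after the start. The 4 CEBPG peaks of Rheb were the most at any of the 10 genes, with the adjoining peaks counted singly. Whether the adjoining peaks are separate sites was not tested.

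**Figure D2:**
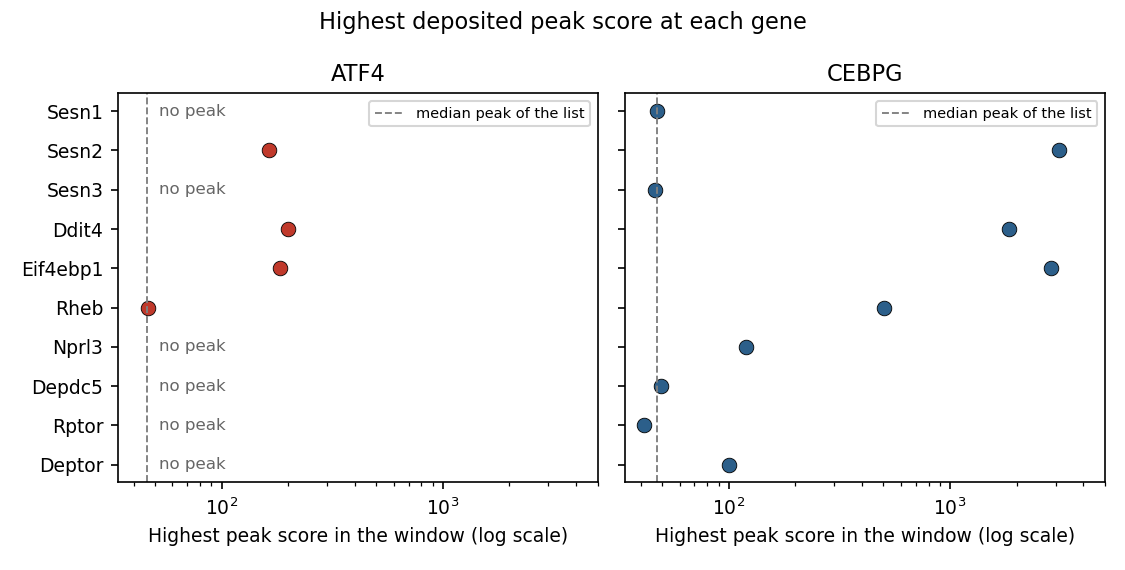
Highest peak score in the window of each of the 10 genes, in the ATF4 list (left) and the CEBPG list (right), on a log scale, with the median peak of each list as a dashed line; each dot is 1 peak of 1 library. Sesn2, Ddit4 and Eif4ebp1 stand far above the median in both panels, Rheb stands at the median for ATF4 and at 503.12 for CEBPG, and the other genes have no ATF4 peak.

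The GATOR1 and mTORC1 subunit genes among the 10 had CEBPG peaks alone. Nprl3, a GATOR1 subunit, had CEBPG peaks of 119.64 and 44.43, both outside the gene. The first lay 1504 bp from Mpg, a DNA repair gene that overlaps the end of Nprl3, and the second was nearer to Hba-x, an embryonic globin gene, than to Nprl3. Depdc5, the GATOR1 subunit that contacts the Rag GTPases, had CEBPG peaks of 49.43, 46.96 and 41.37. The peak of 49.43 was inside Depdc5, that of 46.96 was inside the neighbouring gene Prr14l and that of 41.37 was nearer to Prr14l. Rptor encodes Raptor, the subunit that recruits mTORC1 substrates. Its CEBPG peak at the start (chr11:119602602-119602755) was weak, with a score of 41.58 and a centre 227 bp before the start, and its other peak scored 40.41, far inside the gene. Deptor, an mTOR-binding inhibitor, had CEBPG peaks of 99.81, 82.77 and 75.32 inside its 147 kb span. These 3 scores lay within the top 15.1% of the CEBPG list.

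The ATF4 peak lay wholly inside the CEBPG peak in all 5 pairs, as in 333 of all 404 overlapping pairs (82.4%, 95% Wilson interval 78.4 to 85.8%, counting error only). The centres of the 5 pairs were 14 to 80 bp apart, with a median of 41 bp, against 44 bp over all pairs. Since each ATF4 peak lay inside its CEBPG peak, the CEBPG peak was necessarily the wider. It was 2.39 and 1.94 times as wide at Sesn2, 1.82 times at Ddit4 and at Eif4ebp1 and 1.34 times at Rheb. Neither measure was tested.

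**Figure D3:**
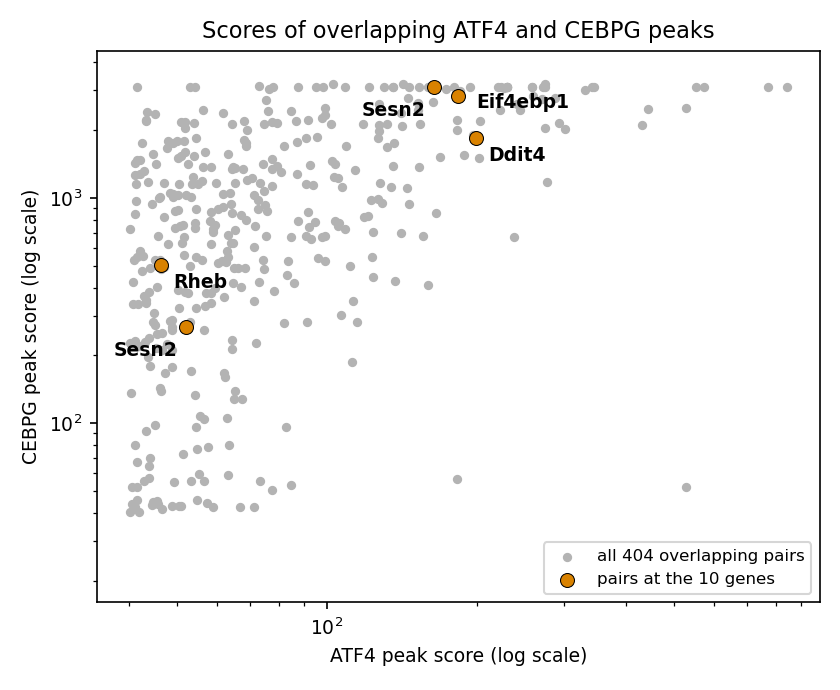
ATF4 score against CEBPG score for all 404 overlapping pairs (grey) and for the 5 pairs at Sesn2, Ddit4, Eif4ebp1 and Rheb (orange), both axes on a log scale. The pairs of Ddit4, Eif4ebp1 and the upstream site of Sesn2 lie at the upper right, with ATF4 scores of 164.36 to 199.36, while the Rheb pair and the second Sesn2 pair lie at low ATF4 scores.

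Within the windows, strong CEBPG peaks were the ones with an ATF4 peak. The 5 paired CEBPG peaks scored 267.95 to 3100 and the 17 others 40.41 to 119.64, so the scores of these sets did not overlap. Of the 17 unpaired peaks, 12 scored under 50 and 1 scored 100 or more. The whole CEBPG list shows the same order, with 7.64% of 720 peaks on an ATF4 peak at scores from 250 to 500 (Wilson interval 5.92 to 9.81%), 47.8% of 186 from 1000 to 2000 (40.8 to 55%) and 87.3% of 110 at 2000 or more (79.8 to 92.3%). From 100 to 250 the share was 2% of 1601 peaks (1.42 to 2.81%), and from 500 to 1000 it was 23.3% of 365 (19.2 to 27.9%). Unlike at the 10 genes, the scores of paired and unpaired peaks overlapped in the whole list. There, 26 of 7130 peaks from 50 to 100 lay on an ATF4 peak, and 14 of 110 at 2000 or more did not.

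Score limits separated the 10 genes further. An ATF4 peak of 100 or more was at 3 of them (Sesn2, Ddit4 and Eif4ebp1), against 0.635% of all genes. A CEBPG peak of 100 or more was at 5, against 10.9%, and one of 1000 or more at 3, against 1.3%. The median of the highest CEBPG score was 110 over the 10 genes and 52.8 over the 9559 protein-coding genes with a CEBPG peak. The 10 values were widely spread, from 41.58 at Rptor to 3100 at Sesn2. Their median fell between Deptor (99.81) and Nprl3 (119.64), and the Nprl3 peak was nearer to Mpg.

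Longer genes have longer windows, and the share of genes with a peak grows with the span. Among all genes with spans under 20 kb, 4.59% had an ATF4 peak, 30.7% a CEBPG peak and 1.22% overlapping peaks. The 3 such genes here, Sesn2, Ddit4 and Eif4ebp1, had all of these. From 20 to 100 kb the shares over all genes were 7.02%, 51.2% and 1.81%. Of the 4 such genes here (Sesn1, Sesn3, Rheb and Nprl3), 1 had an ATF4 peak, all had a CEBPG peak and 1 had overlapping peaks. At 100 kb or more the shares were 22.6%, 83.1% and 4.45%. The 3 longest genes here, Rptor, Depdc5 and Deptor, had CEBPG peaks, which most genes of that length have, and no ATF4 peak. Per 100 kb of window, CEBPG peaks numbered 5.03 at Rheb, 4.75 at Ddit4, 3.61 at Eif4ebp1 and 3.47 at Sesn2, down to 0.594 at Rptor, with a median of 2.2 over the 10 genes. The value for Rheb counts its adjoining peaks singly and would be lower if they were taken as a single site. Over all protein-coding genes, 10% of windows held more than 2.44.

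Near annotated starts, 3 of the 8 genes with a start in the promoter table (Sesn2, Ddit4 and Rheb) had overlapping peaks with the ATF4 centre within 5 kb, against 0.486% of 17492 genes. A CEBPG centre lay within 5 kb of a start at 6 of the 8, against 11.7%, with peaks of any score counted. Among the 6, Sesn1 (47.42), Nprl3 (44.43) and Rptor (41.58) counted through weak peaks only, that of Nprl3 being nearer to Hba-x. With 50 kb on either side, the same 4 genes had an ATF4 peak. The farthest peaks inside the 20 kb limit were CEBPG peaks 10.7 kb from Eif4ebp1 and 10.6 kb from Depdc5 (46.96), and the nearest beyond 20 kb were CEBPG peaks 22.5 kb from Eif4ebp1 (51.88) and 28.2 kb from Deptor (63.2). The nearest ATF4 peak outside any 20 kb window was 134 kb from Depdc5 (56.38).

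**Figure D4:**
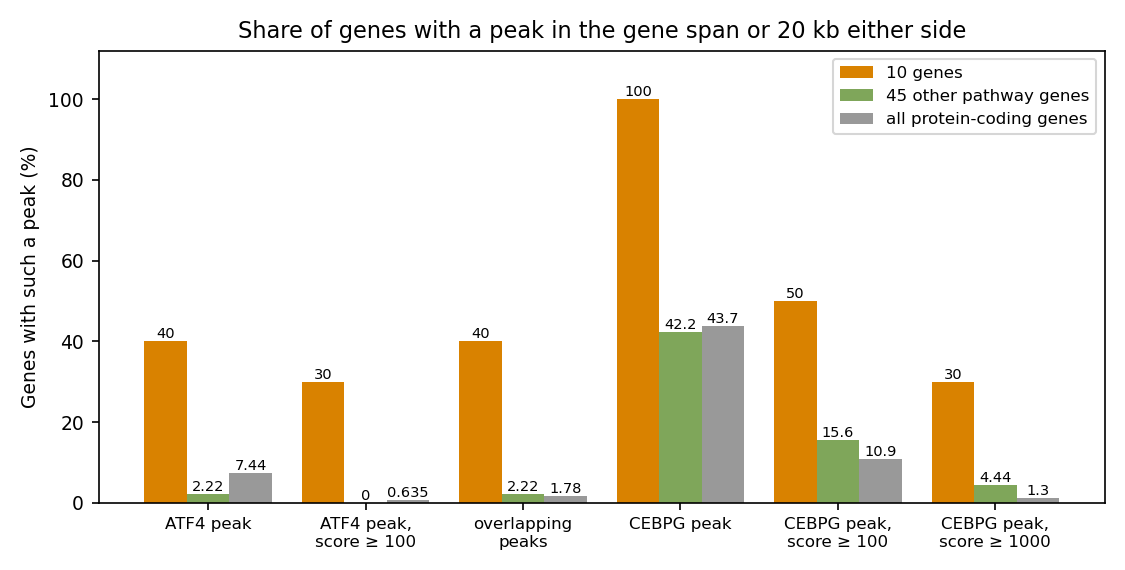
Percent of genes with each kind of peak in the gene span or the 20 kb on either side, for the 10 genes (orange), the 45 other pathway genes (green) and all 21887 protein-coding genes (grey). An ATF4 peak of 100 or more was at 3 of the 10 genes, 0 of the 45 and 0.635% of all genes.

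The wider pathway was read from a list of 45 other genes of mTORC1 signalling. Of these, 1 had an ATF4 peak (2.22%) and 19 had a CEBPG peak (42.2%), against 7.44% and 43.7% of all genes. The gene with an ATF4 peak was Trib3, a pseudokinase that inhibits AKT, where an ATF4 peak of 46.24 lay at the start on a CEBPG peak of 1007.02. CEBPG peaks of 100 or more were at 7 of the 45 genes (15.6%), against 10.9% of all genes.

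Of 10 Rag GTPase and Ragulator genes, including the lysosomal arginine transporter gene Slc38a9, 2 had a CEBPG peak, Rragc (44.95) and Lamtor5 (49.61). Of 6 further GATOR genes, 2 had one, Wdr59 (47.99) and Seh1l (46.84). Mtor itself, the kinase, had CEBPG peaks of 52.96 inside the gene and 45.58 outside it, nearer to Exosc10. Tsc1 and Tsc2, the subunits of the complex that turns Rheb off, had no peak in either list, and the third subunit gene, Tbc1d7, had a CEBPG peak of 283.21. The 4 paralogues, Rhebl1, Ddit4l, Eif4ebp2 and Eif4ebp3, had no peak in either list. Rhebl1, Ddit4l and Eif4ebp3 have spans under 20 kb, where 30.7% of all genes had a CEBPG peak and 4.59% an ATF4 peak. For spans from 20 to 100 kb, as at Eif4ebp2, these shares were 51.2% and 7.02%. Among sensors, CEBPG peaks were at Lars (1284.92), leucyl-tRNA synthetase, and at Bmt2 (155.3), the S-adenosylmethionine sensor also called SAMTOR. Among substrates, they were at Grb10 (592.64), a growth factor receptor adaptor, and at Rps6kb2 (149.15), an S6 kinase. The remaining values among the 8 highest were at Fnip1 (106.19), a folliculin partner, and at Akt1s1 (79.21), the gene of the mTORC1 inhibitor PRAS40, 460 bp before its start.

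**Figure D5:**
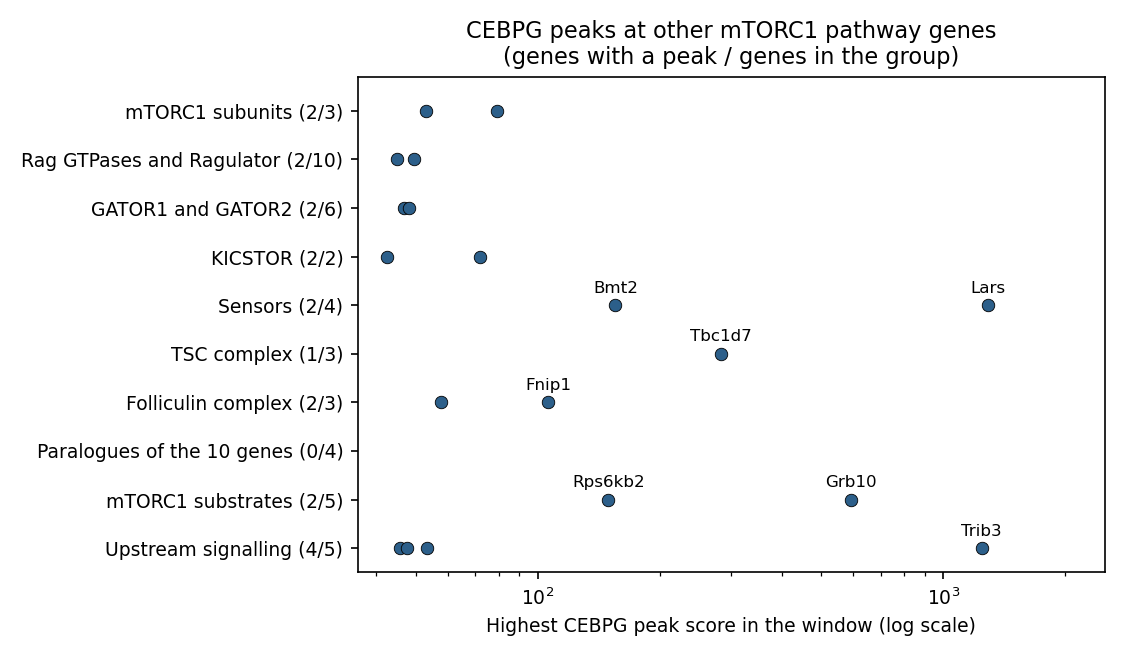
Highest CEBPG score in the window for the 19 of 45 other pathway genes that had a CEBPG peak, by complex or role, on a log scale; the labels on the left give genes with a peak out of genes in the group. Scores of 100 or more are named, led by Lars at 1284.92 and Trib3 at 1242.04.

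The genes outside the pathway with the most similar pair of highest scores were sought for Sesn2, Ddit4 and Eif4ebp1 among 1154 genes with peaks of both factors, by the distance of the log10 scores over the 2 libraries. For Sesn2 they were Ero1a and Psmc6, neighbours counted through the same peak pair (159.56 for ATF4, 3100 for CEBPG), and Cdkn1a (173.28 for ATF4, 3033.27 for CEBPG). The CEBPG score of 3100 is tied over 38 peaks, so Ero1a and Psmc6 were set apart from Sesn2 by the ATF4 score alone. For Ddit4 they were Arhgap35 (182.53 for ATF4), Asns (188.31) and Slc7a1 (202.03). For Eif4ebp1 they were Slc25a21 (184.97 for ATF4), Cdkn1a and Psat1 (180.22). Asns and Psat1 encode enzymes of asparagine and serine synthesis, and Slc7a1 a cationic amino acid transporter. The closest matches were other genes, namely Ero1a and Psmc6 for Sesn2, Arhgap35 for Ddit4 and Slc25a21 for Eif4ebp1. A shared function of the listed genes was not tested. Likeness here is of scores in these lists only.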

How the data were processed

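ChIP-seq peaks were read from the deposited lists for the ATF4 and CEBPG libraries, 1 library each, with single-end 36 bp reads, per the labels' protocols. Tools named without settings in the submitters' processing notes are MACS 1.4.2, BWA, Trimmomatic and HOMER, with the build mm10. Which control served for calling was not stated there. Each list comes from its own library, with no pooling recorded. The score of a peak is the authors' value, read from the end of the deposited peak name in column 4. Its scale is not stated, and it is not corrected for depth, which is unknown.

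Positions are 1-based in mm10. Gene spans came from a RefSeq table and starts from RefSeq promoter sequences, both of GRCm38.p6. Starts were found for 8 of the 10 genes. Peaks were assigned to spans with 20 kb on either side, and peaks overlapping by at least 1 bp formed a pair (Python 3.11.15, pandas 2.3.3). Counting was checked on simulated peaks and with bedtools 2.31.1. Shares of peaks have 95% Wilson intervals. The 10 genes and the pathway list of 45 genes (all matched, 1 through a synonym) were chosen with earlier results of these data known. All 10 genes were named. Of the pathway list, those with an ATF4 peak, the 8 highest CEBPG scores, Mtor, Tsc1, Tsc2 and Trib3 were named by rule. Any further gene of the list was named after its value was seen, and 1 gene first listed is not reported here. Alternatives changed the window (0, 5 and 50 kb), the score minimum (50 and 100), the overlap rule and the treatment of peaks nearer to another gene.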

Additional observations from a re-analysis of the deposited data

How the results depend on the processing

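The number of the 10 genes with an ATF4 peak, or with overlapping peaks, was 3 or 4 under every alternative run. Ddit4 dropped out with the gene span alone, and Rheb at scores of 50 or more. The number with a CEBPG peak was 10 and came to 6 at scores of 50 or more and 5 at 100 or more. The number with no peak in either list was 0 and came to 2 with the gene span alone, 4 and 5 at those score minimums, and 1 when only peaks nearest to the gene counted. For the number with no peak in either list, the share over all protein-coding genes was not computed at any setting. With the gene span alone and at the score minimums, that number is to be read beside the CEBPG shares given below. Over all protein-coding genes, the share with an ATF4 peak was 3.94% with the gene span alone, 4.94% within 5 kb, 12% within 50 kb, 2.86% at scores of 50 or more and 0.635% at 100 or more. The share with a CEBPG peak was 23.4% with the gene span alone, 29.9% within 5 kb and 62.5% within 50 kb. It was 24.9% and 10.9% at those score minimums. The share with overlapping peaks was 0.804% with the gene span alone, 1.13% within 5 kb, 2.95% within 50 kb and 0.562% at scores of 100 or more. Pathway genes with a peak in either list numbered 31 of 45 within 50 kb, 12 at scores of 50 or more and 7 at 100 or more. The 31 of 45 is to be read beside the 62.5% above, which counts CEBPG peaks only. Of 49 alternative values, 28 stayed within 1.5 times the reported one. No paired analysis was possible because each antibody had 1 library. Unknown depth limits what an absent peak means in either list.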

Other observations

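Some strong CEBPG peaks of pathway genes had no ATF4 peak. At Lars, leucyl-tRNA synthetase, the CEBPG peak of 1284.92 overlapped none, and no ATF4 peak lay in the window. At Trib3 the strongest CEBPG peak, 1242.04, lay 6.05 kb before the start and overlapped no ATF4 peak, while the peak of 1007.02 at the start did. At Grb10, the CEBPG peaks of 592.64, 65.3 kb after the nearest annotated start, and of 209.73, 0.977 kb after one, overlapped none. Over the whole list, 97 of 186 CEBPG peaks with scores from 1000 to 2000 overlapped no ATF4 peak. At the scores of the 2 Grb10 peaks this was the usual state. No ATF4 peak was overlapped by 280 of 365 CEBPG peaks from 500 to 1000 and 1569 of 1601 from 100 to 250.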
